A study of Mus musculus with 8 samples.

Results

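The 10 genes whose transcripts stood higher in the base than in the apex of the organ of Corti, in mice with and without Dicer1 in hair cells, and which were followed across 8 arrays, are Nkx6-1, Ppp1r1b, Tnmd, Chad, Cytl1, Thbs4, Ptgis, Smpd3, Clca2 and Slc8a3. They are 10 of the 18193 genes measured and 10 of the 13221 genes that passed the filter on low signals and were tested. They were selected on the log2 signals themselves, because the basal arrays lay above the apical ones in both genotypes, so the difference between base and apex is given below as a description and was not tested for them. The difference between genotypes was not part of that choice and was tested. The change of the gradient with genotype was tested too, but the choice limited it. Genes whose gradient was lost or reversed in either genotype could not be chosen.

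The organ of Corti is the sensory strip of the cochlea, and its position along the spiral sets the sound frequency to which a hair cell responds, with high frequencies at the base and low frequencies at the apex. Many genes are graded along this axis, in the sensory cells and in the tissues dissected with them: the stria vascularis, which secretes potassium into the endolymph, the fibrous spiral ligament, and the cartilage-type matrix and bone that surround the duct. Of the genes followed here, Tnmd, Chad, Cytl1 and Thbs4 encode proteins of tendon, cartilage and other connective matrix. Ptgis and Smpd3 encode enzymes of lipid signalling, Clca2 and Slc8a3 proteins of ion transport, Ppp1r1b a phosphatase inhibitor and Nkx6-1 a transcription factor.

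All mice were aged to postnatal day 16. The 4 groups, each with 2 arrays, were the base and the apex from conditional knockout mice (cKO), Atoh1-Cre;Dicer1(flox/flox), and the base and the apex from littermate controls, Atoh1-Cre;Dicer1(flox/wt). Controls therefore carried the Cre transgene and 1 floxed allele as well, and Atoh1-Cre acts in hair cells and not in most of the tissue on the arrays. Every array held RNA joined from the left and right ear of 1 mouse, and the base and apex of the same genotype and replicate number were taken as the same animal, giving 4 presumed mice. Values are log2 MAS5 signals, a brightness per probe set scaled to a common trimmed mean on each array.

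The arrays carried the sensory tissue named on their labels, with the hair cell myosin Myo7a between 7.68 and 9.17 and the supporting cell factor Sox2 between 9.30 and 10.99 on the log2 scale. Dicer1 transcript signal differed by -0.02 ± 0.22 (log2, SE) in cKO minus control base and by -0.09 ± 0.22 in the apex (limma, adjusted p = 1 in both, n = 2 each); whether its probes lie in the floxed part is not known, so this does not check recombination. Control base replicate 1 stood apart from the other basal arrays: the melanin enzyme Dct of strial pigment cells was at 5.96 there, against 13.65 to 13.91 on the other 3 basal arrays. Its correlation with its replicate across tested genes was 0.928, against 0.962 to 0.978 in the other groups. On control apex replicate 1 Dct was at 11.87, against 6.19 to 9.365 on the other apical arrays. Xist, added as a check with its values known, was at 12.39 and 12.54 in the base and apex of control mouse 1 and at most 8.23 on the other 6 arrays, so its level was far higher in that mouse; the other 6 arrays ran from 6.28, above the filter. Results that rest on this mouse are given with and without it.

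RefSeq promoters (GRCm38.p6, 250 bases before to 50 after the start) matched 7 of the 10 genes, all but Ppp1r1b, Ptgis and Smpd3. The 4 printed here let the start regions be compared within the connective matrix genes and with Clca2, which shares with Cytl1 the low level on control base replicate 1 described below. Capitals mark exact matches, on either strand, to 7 short motifs. They are TATAAA for the TATA box, GGGCGG for the GC box, CATGTG for an E-box read by MITF, AAGGTCA for ESRRB, TGTGGT for RUNX factors, ACAAAG for SOX9 and TAATTA for homeodomain factors. No matches overlapped one another in these windows. For Clca2 and Slc8a3, both on the - strand, the start used lay inside the gene as positioned below. Their windows ended at 145099356 and 81333430, and the genes at 145099443 and 81333732.
Tnmd, chrX:133850758-133851057, + strand: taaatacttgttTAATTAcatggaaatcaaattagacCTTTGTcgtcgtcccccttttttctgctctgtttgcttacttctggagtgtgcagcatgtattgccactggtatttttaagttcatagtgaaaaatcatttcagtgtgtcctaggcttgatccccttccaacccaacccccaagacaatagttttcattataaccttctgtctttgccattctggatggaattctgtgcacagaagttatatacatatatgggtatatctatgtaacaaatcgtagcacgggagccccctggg
Chad, chr11:94564797-94565096, + strand: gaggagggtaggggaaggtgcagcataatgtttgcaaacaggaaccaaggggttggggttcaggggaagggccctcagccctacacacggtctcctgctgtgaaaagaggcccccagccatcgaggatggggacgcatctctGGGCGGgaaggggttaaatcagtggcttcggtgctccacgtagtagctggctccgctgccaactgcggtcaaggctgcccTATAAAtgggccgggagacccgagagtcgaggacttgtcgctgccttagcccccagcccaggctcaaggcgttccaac
Cytl1, chr5:37735269-37735568, + strand: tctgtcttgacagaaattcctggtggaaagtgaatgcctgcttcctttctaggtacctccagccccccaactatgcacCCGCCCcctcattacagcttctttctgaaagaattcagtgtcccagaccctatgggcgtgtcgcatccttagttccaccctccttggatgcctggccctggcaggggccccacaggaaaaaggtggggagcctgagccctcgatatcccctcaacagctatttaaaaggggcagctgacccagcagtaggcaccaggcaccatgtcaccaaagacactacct
Clca2, chr3:145099057-145099356, - strand: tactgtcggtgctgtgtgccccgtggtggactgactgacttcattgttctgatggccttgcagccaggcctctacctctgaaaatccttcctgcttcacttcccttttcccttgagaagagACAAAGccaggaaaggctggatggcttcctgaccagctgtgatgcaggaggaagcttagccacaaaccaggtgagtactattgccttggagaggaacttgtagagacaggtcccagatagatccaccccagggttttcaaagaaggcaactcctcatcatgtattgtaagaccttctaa

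The Chad promoter held the only TATAAA among the 7 promoters, beginning 28 bases before the start, and 13.62% of 32851 mouse promoters of the same length held one. GGGCGG occurred in 3 of the 7 (Chad, Cytl1 and Thbs4), against 35.66% of all promoters, and ACAAAG in 2 of the 7 (Tnmd and Clca2), against 18.71%. TAATTA occurred in Tnmd alone, against 5.29% of all. Of the 7 promoters 0 held CATGTG, which 14.15% of all held. The same was true of AAGGTCA, with 4.72% of all, and of TGTGGT, with 16.76%. GC content ran from 40% in Tnmd to 72.0% in Thbs4, with a median of 52.7% over all promoters. No motif was common to the 7 windows.

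Every one of the 10 genes had all 4 basal arrays above all 4 apical arrays, as 5.96% of the tested genes did. That count restates the choice of the genes. Ranked by the gap between the lowest basal and the highest apical array, the genes held places 1 to 7 of 13221 (Ppp1r1b, Tnmd, Ptgis, Smpd3, Chad, Thbs4 and Cytl1), and Nkx6-1, Clca2 and Slc8a3 places 24, 26 and 36. The mean base-apex difference over both genotypes ran from 1.35 (Chad) to 2.80 (Ppp1r1b) on the log2 scale, with a median of 1.88, beside a median of -0.02 over all tested genes. In bulk tissue, fewer cells of a type and less RNA per cell cannot be told apart.

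**Figure D1:**
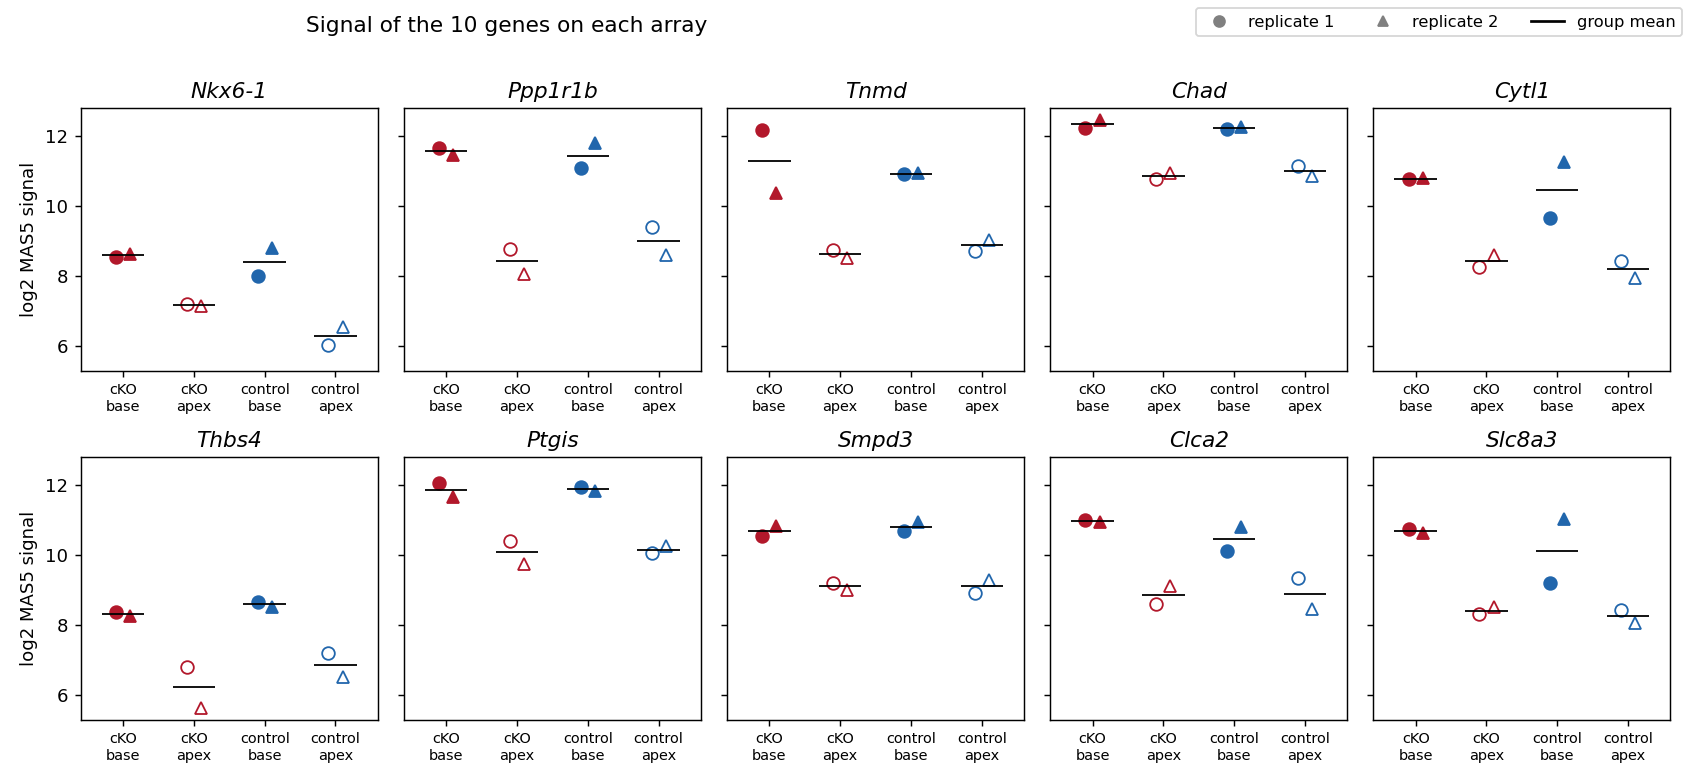
Log2 MAS5 signal of each of the 10 genes on the 8 arrays, with cKO in red, control in blue, filled symbols for base, open symbols for apex, circles for replicate 1, triangles for replicate 2 and lines for group means. Filled symbols lie above open ones in every panel, with the narrowest gap, 0.69, in Slc8a3 and the widest, 1.69, in Ppp1r1b.

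Among the connective matrix genes, Tnmd (chrX:133851008-133865577, GRCm38.p6 as all positions here), a membrane glycoprotein of tendon and other dense connective tissue, had log2 signals of 12.18 and 10.39 in cKO base against 8.74 and 8.53 in cKO apex. In controls Tnmd was at 10.92 and 10.94 in the base and at 8.72 and 9.04 in the apex. The lower 3 basal values lay close together and cKO base replicate 1 stood above them by over 1 log2 unit. The base-apex difference was 2.65 ± 0.50 (log2, SE), or 6.27-fold, in the cKO and 2.05 ± 0.50, or 4.15-fold, in controls.

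Chad (chr11:94565047-94569127) encodes chondroadherin, a leucine-rich cartilage protein that binds cells to collagen. Its signals were 12.22 and 12.46 in cKO base against 10.78 and 10.96 in cKO apex. In control base they were 12.22 and 12.26, against 11.14 and 10.86 in control apex. Chad had the tightest replicates of the set, a range of 0.24 over the basal and 0.35 over the apical arrays. Its gradient, the smallest of the 10 over both genotypes and in controls but not in the cKO, was 1.47 ± 0.16 in the cKO (2.77-fold) and 1.24 ± 0.16 in controls (2.36-fold).

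Cytl1 (chr5:37735519-37739820), a small secreted protein made by cartilage cells, was at 10.76 and 10.80 in cKO base against 8.26 and 8.60 in cKO apex. In control base its signals were 9.65 and 11.27, against 8.44 and 7.95 in control apex. The control basal pair was spread more widely than the cKO pair, with replicate 1 the lowest basal array. The difference was 2.35 ± 0.47 in the cKO (5.10-fold) and 2.27 ± 0.47 in controls (4.82-fold). Thbs4 (chr13:92751586-92794818), a thrombospondin of tendon and muscle matrix, was at 8.36 and 8.27 in cKO base against 6.79 and 5.63 in cKO apex. Thbs4 signals in control base were 8.65 and 8.52, against 7.21 and 6.51 in control apex. Here the basal arrays spanned 0.38 and the apical ones 1.58. Both cKO basal arrays lay below both control basal arrays, as for 15.6% of tested genes. The difference was 2.10 ± 0.41 in the cKO (4.30-fold) and 1.73 ± 0.41 in controls (3.31-fold).

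Of the lipid enzymes, Ptgis (chr2:167203194-167252150) makes prostacyclin, a prostanoid that relaxes vessels. Ptgis signals were 12.06 and 11.67 in cKO base against 10.40 and 9.75 in cKO apex, and 11.95 and 11.84 in control base against 10.06 and 10.26 in control apex. Its gradient was nearly the same in the genotypes, 1.79 ± 0.24 (3.45-fold) in the cKO and 1.74 ± 0.24 (3.34-fold) in controls.

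Smpd3 (chr8:106252548-106337965), the neutral sphingomyelinase that releases ceramide and that mice need for mineralised bone, was read by 3 probe sets. The brightest gave 10.55 and 10.84 in cKO base against 9.21 and 9.01 in cKO apex, and 10.69 and 10.95 in control base against 8.91 and 9.30 in control apex. The difference was 1.58 ± 0.21 in the cKO (2.999-fold) and 1.71 ± 0.21 in controls (3.28-fold). The other probe sets of Smpd3 gave 1.82 and 1.85 in the cKO and 1.93 and 2.93 in controls, and in both the 4 basal arrays lay above the 4 apical ones. The dimmest of the 3 was under the filter signal of 38.7 on 3 apical arrays, so its size is uncertain.

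Slc8a3 (chr12:81197915-81333732) encodes the sodium/calcium exchanger NCX3, which moves calcium out of excitable cells. Its signals were 10.74 and 10.64 in cKO base against 8.31 and 8.51 in cKO apex, and 9.19 and 11.03 in control base against 8.43 and 8.07 in control apex. The difference was 2.28 ± 0.51 in the cKO (4.85-fold) and 1.87 ± 0.51 in controls (3.64-fold). Control base replicate 1 was the lowest basal array by 1.44 and still 0.69 above the highest apical array. A second, dim Slc8a3 probe set, under the filter on all 4 apical arrays, had basal values of 6.31 and 6.36 in the cKO and 6.02 and 5.41 in controls, above apical values that reached 5.15.

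Clca2 (chr3:145070260-145099443), a member of the family of calcium-activated chloride channel regulators, gave 10.996 and 10.94 in cKO base against 8.60 and 9.11 in cKO apex. In control base Clca2 was at 10.11 and 10.81, against 9.34 and 8.45 in control apex. The difference was 2.11 ± 0.36 in the cKO (4.33-fold) and 1.57 ± 0.36 in controls (2.97-fold). Both cKO basal arrays lay above both control basal arrays, by 0.13 at the closest, as 13.1% of tested genes did.

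Ppp1r1b (chr11:98348406-98357796), also called DARPP-32, blocks protein phosphatase 1 once protein kinase A has phosphorylated it, and is best known from dopamine-responsive neurons. Its signals were 11.65 and 11.48 in cKO base against 8.77 and 8.06 in cKO apex, and 11.09 and 11.81 in control base against 9.40 and 8.59 in control apex. No gene of the set had a steeper mean gradient: 3.15 ± 0.37 in the cKO (8.87-fold) and 2.45 ± 0.37 in controls (5.46-fold). Nkx6-1 (chr5:101659184-101664711), a homeodomain transcription factor that acts in motor neuron and pancreatic beta cell development, gave 8.53 and 8.64 in cKO base against 7.21 and 7.15 in cKO apex. In control base Nkx6-1 was at 7.99 and 8.80, against 6.04 and 6.54 in control apex. Its apical arrays separated by genotype and its basal arrays did not, and the difference was 1.41 ± 0.32 in the cKO (2.66-fold) and 2.11 ± 0.32 in controls (4.31-fold).

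Whether loss of Dicer1 in hair cells altered the level of these genes was asked in each region of the organ. None of the 10 passed limma's adjusted threshold of 0.05 in the base (adjusted p = 1 for each) or in the apex (adjusted p = 1 for each), and 0% of all tested genes passed in either region. In the base, 7 of 10 differences were above 0, as for 49.8% of tested genes, from -0.27 ± 0.41 (Thbs4) to 0.57 ± 0.51 (Slc8a3), with a median of 0.16 beside 0.00 over all tested genes. In the apex 4 of 10 were above 0, as for 50.1%, from -0.65 ± 0.41 (Thbs4) to 0.89 ± 0.32 (Nkx6-1), with a median of -0.06. At an unadjusted p under 0.05 the base held 0 of the 10 genes, against 3.12% of all genes, and the apex 1 of the 10, Nkx6-1 (unadjusted p = 0.0255 by limma), against 2.19%.

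For Nkx6-1 both cKO apical arrays lay above both control apical arrays, as 15% of tested genes did. For 0 of the 10 did both lie below, as for 16.2% of tested genes. The 95% interval of the apical Nkx6-1 difference was 0.14 to 1.64. For Chad, the gene with the smallest standard error, the intervals were -0.27 to 0.48 in the base and -0.51 to 0.25 in the apex, so that a genotype difference of 1 log2 unit lay outside both. For Slc8a3 they were wider, -0.62 to 1.77 in the base and -1.04 to 1.36 in the apex, and cover changes of over 2-fold. A median over the genes in the base turned with 1 array: it was -0.21 without control base replicate 1, with 4 of 10 above 0, and 0.42 without control base replicate 2.

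**Figure D2:**
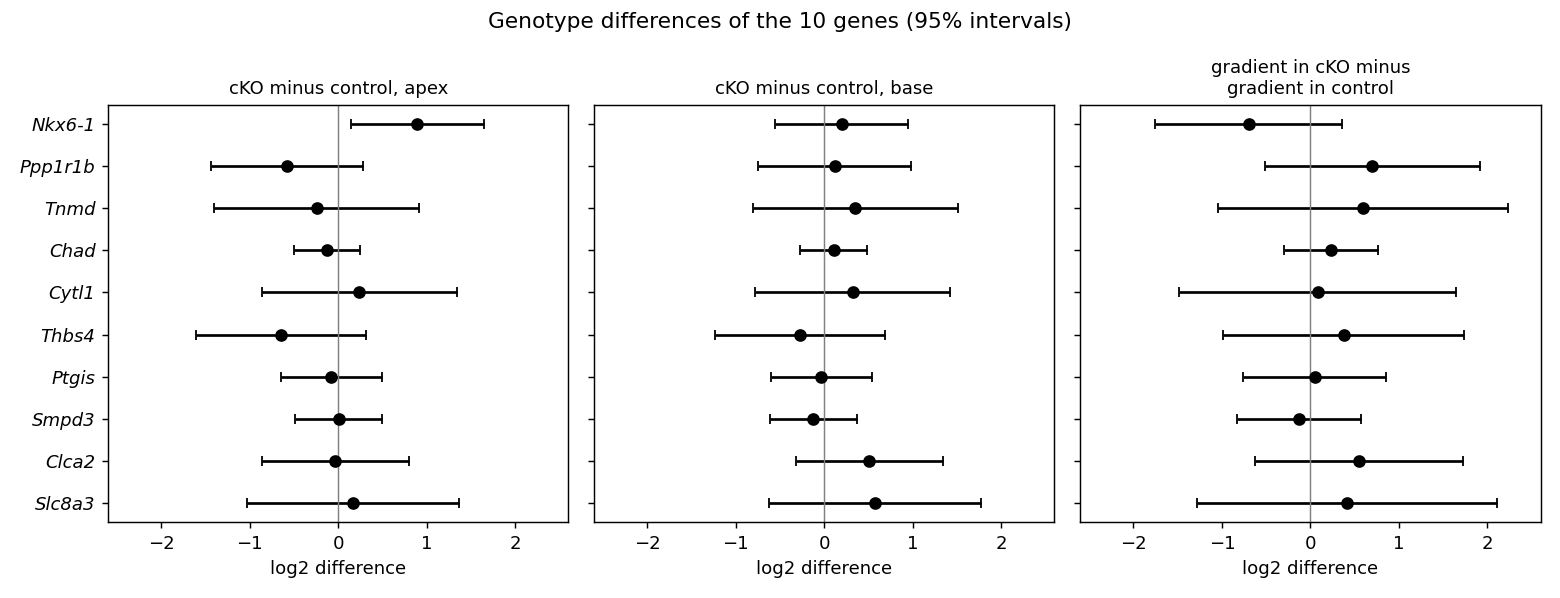
Differences between genotypes for the 10 genes, as log2 estimates (points) with 95% intervals (bars) from limma, for the apex, the base and the difference in gradient. All intervals but that of Nkx6-1 in the apex (0.14 to 1.64) include 0, and none of the 10 genes passed the adjusted threshold in any panel.

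The gradient itself was compared between genotypes through the interaction of genotype and region. Since the choice asked for base above apex in both genotypes, a lost or reversed gradient could not appear here. Only differences in its size could. None of the 10 genes passed (limma, adjusted p = 1 for each), 0% of all tested genes did, and 0 of the 10 had an unadjusted p under 0.05, against 1.13% of all. The gradient in cKO minus that in controls was above 0 for 8 of 10 genes, as for 49.5% of all tested genes, with a median of 0.30. It ran from -0.70 ± 0.45 for Nkx6-1 to 0.70 ± 0.52 for Ppp1r1b. The narrowest interval was that of Chad, -0.30 to 0.76, and the widest that of Slc8a3, -1.28 to 2.11. Without both arrays of control mouse 1, an alternative chosen after the data were seen, the median was -0.07 and 4 of 10 genes were above 0.

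Taken within each presumed mouse, base exceeded apex for 10 of 10 genes in all 4 mice, as for 16% of all tested genes. That count again restates the choice of the genes. The median gradient was 2.03 in cKO mouse 1, 1.89 in cKO mouse 2, 1.57 in control mouse 1 and 2.14 in control mouse 2. The smallest gradient of the 4 mice belonged to control mouse 1 for 6 of the 10 genes (Ppp1r1b, Chad, Cytl1, Thbs4, Clca2 and Slc8a3), as for 23.9% of tested genes. The Slc8a3 gradient was smallest there, 0.76 against 2.13 to 2.97 in the other 3 mice, followed by Clca2, 0.77 against 1.83 to 2.39, and Cytl1, 1.22 against 2.20 to 3.32. Ptgis, Smpd3, Tnmd and Nkx6-1 did not share that order: Ptgis gave 1.90 in control mouse 1 and Smpd3 1.77, each the second largest of the 4 mice.

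**Figure D3:**
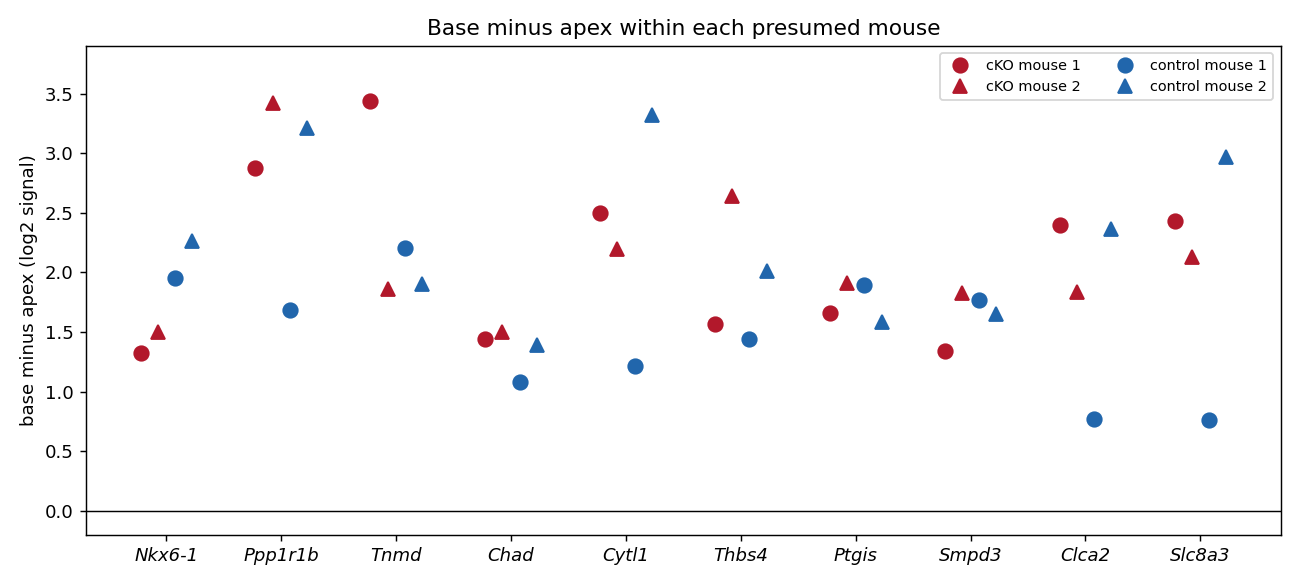
Base minus apex in log2 signal within each of the 4 presumed mice, for each of the 10 genes, with cKO mice in red and control mice in blue. All 40 points lie above 0, which the choice of the genes fixed. Control mouse 1 (blue circles) is lowest for Slc8a3 (0.76), Clca2 (0.77) and Cytl1 (1.22) but not for Ptgis (1.90) or Smpd3 (1.77).

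The same arrays were read with marker lists of the stria vascularis and of bone. Strial melanocyte genes had a summed signal of 23590 and 20230 in cKO base against 2706 and 3614 in cKO apex, and of 4066 and 23280 in control base against 7469 and 3041 in control apex. Strial ion transport genes had sums of 39750 and 37760 in cKO base against 22080 and 22530 in cKO apex, and of 20960 and 40680 in control base against 23910 and 22950 in control apex. By these sums both lists were high on 3 basal arrays and near the apical level on control base replicate 1. Not every gene followed the sums: the melanocyte receptor gene Kit, at 9.60 to 10.04 on the apical arrays, was at 10.75 on control base replicate 1. The mean centred log2 signal of the 10 basal genes was 0.62 on that array, against 0.98 to 1.19 on the other basal arrays and -1.10 to -0.86 on the apical arrays. That their basal arrays, this one included, lay above the apical ones was fixed by the choice of the genes, so it does not set them apart from the strial lists.

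Within control mouse 1 the median gradient was -1.33 for the 8 tested melanocyte genes, with 2 above 0, and -0.50 for the 7 tested ion transport genes, with 1 above 0. The 10 basal genes had a median of 1.57 in that mouse, where their direction was again fixed by the choice. The strial gradients of control mouse 1 rest on both its arrays. On control apex replicate 1 the melanocyte and ion transport lists had mean centred log2 signals of 0.26 and -0.02. On the other apical arrays these were -1.61 to -0.51 and -1.32 to -0.55. Control base replicate 1 was the lowest of the 4 basal arrays for 6 of the 10 genes, as for 31.5% of tested genes. Slc8a3, Cytl1, Clca2, Nkx6-1 and Ppp1r1b were 1.44, 1.11, 0.70, 0.54 and 0.39 log2 units below the next basal array on control base replicate 1, in that order, and Chad 0.01. Thbs4, with 8.65, and Ptgis, with 11.95, were at or near their highest level there. The part of strial tissue in the size of any gradient was not tested.

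Bone genes (9 measured) had summed signals of 54280 and 48020 in cKO base against 37460 and 30160 in cKO apex, and of 42180 and 47650 in control base against 29000 and 32630 in control apex. The 4 basal sums lay above the 4 apical ones, as for the 10 genes. Within mice the median bone gradient was 0.92 and 1.01 in cKO mice 1 and 2 and 0.95 and 0.71 in control mice 1 and 2. Control mouse 1 did not stand out. The 10 genes had a larger median in each mouse. They were chosen for their gradient and the bone genes were not, so this does not set them apart from bone. Osteoclast genes had sums of 11800 and 8099 in cKO base against 3270 and 4700 in cKO apex, and of 4046 and 6212 in control base against 2632 and 5927 in control apex, so these overlapped. Their median gradient was 1.63 and 0.56 in cKO mice 1 and 2 and -0.06 and -0.85 in control mice 1 and 2.

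On cKO base replicate 1, where Tnmd was at 12.18, the bone collagen Col1a1 was at 11.48 and the osteoclast phosphatase Acp5 at 10.69, the highest of the 8 arrays for each. Of the whole lists, 4 of the 9 bone genes and 6 of the 7 tested osteoclast genes were highest on that array. So were 5 of 8 spiral ligament fibrocyte, 5 of 10 bone marrow and 4 of 8 melanocyte genes. Among cartilage genes 4 of 19 were, and 0 of 12 hair cell and 0 of 7 neuron genes. The share over all tested genes was not counted. On the other arrays Col1a1 ran from 8.83 to 10.56 and Acp5 from 5.47 to 8.77. The part of bone in the Tnmd level was not tested. Without that array the Tnmd difference between genotypes in the base was -0.54, beside 0.35 with it.

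**Figure D4:**
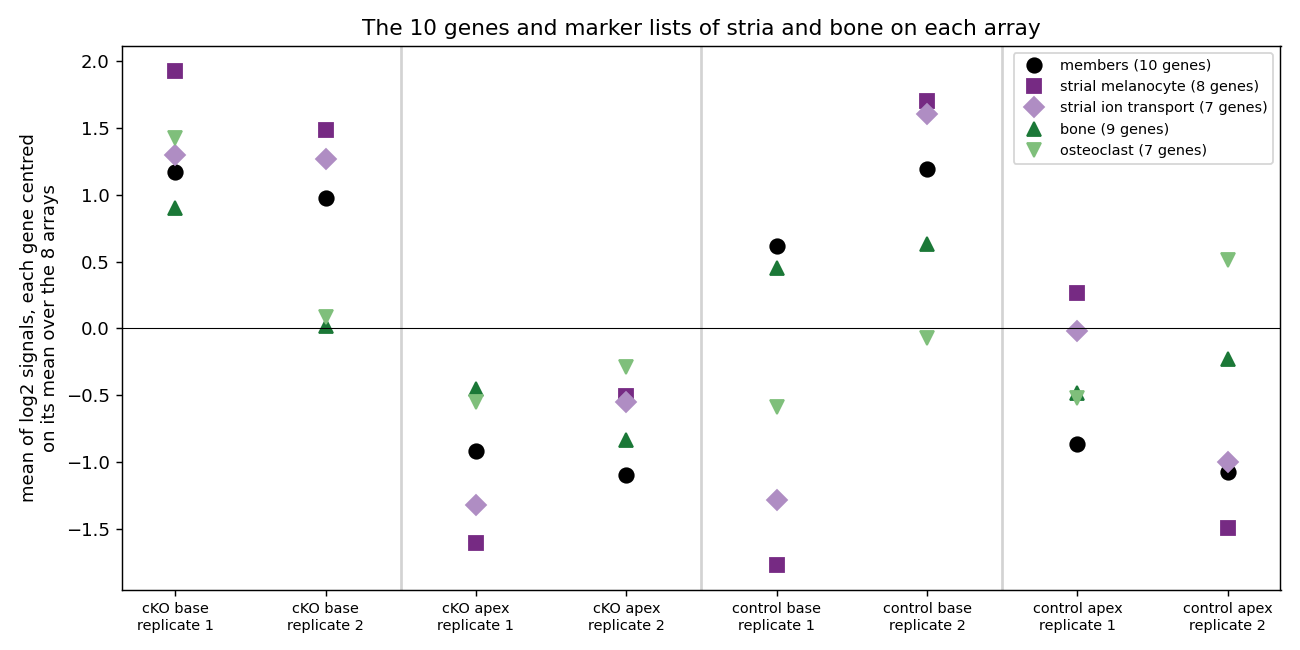
Mean of log2 signals, each gene centred on its mean over the 8 arrays, for the 10 basal genes and the tested members of 4 marker lists on each array. On control base replicate 1 the strial lists are at -1.77 and -1.28 while the 10 genes are at 0.62 and bone at 0.45.

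Over both genotypes the base-apex contrast called 0.59% of tested genes higher in the base and 0.598% lower, 1.19% in all; in the cKO alone it called 0.0832% and in controls alone 0% (limma; 7.52% at an unadjusted p under 0.05). With the mouse as a random block, 273 and 254 genes were called, beside 78 and 79 without it. Of the 9 tested bone genes 2 were called higher: Phex, an endopeptidase of osteocytes (1.33 ± 0.16, adjusted p = 0.0197, limma), and Dmp1, an osteocyte matrix protein (0.67 ± 0.11, adjusted p = 0.0455). Of the 8 melanocyte genes 1 was, the receptor Kit (0.82 ± 0.13, adjusted p = 0.0374), and of the 7 ion transport and 7 osteoclast genes 0 in either direction. The list medians were 0.84 for bone, 1.76 for melanocyte, 0.96 for ion transport and 0.37 for osteoclast genes, beside -0.02 over all genes. Without both arrays of control mouse 1, the medians were 2.87 for melanocyte and 1.41 for ion transport genes. They were 0.72 for bone and 0.31 for osteoclast genes, beside -0.03 over all genes. Leaving out that mouse leaves 1 array in each control group, so calls per list are not given for it.

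Cartilage and fibrous matrix genes, the company of Tnmd, Chad, Cytl1 and Thbs4, moved in part. Of 19 tested cartilage genes 3 were called higher in the base and 0 lower: the collagen chains Col11a2 (1.38 ± 0.15, adjusted p = 0.0164, limma) and Col9a2 (1.60 ± 0.21, adjusted p = 0.0289) and the cartilage matrix protein Ucma (0.66 ± 0.11, adjusted p = 0.0431). The list median was 0.46. Of 15 tested tendon and fibrous matrix genes 2 were called higher, the small leucine-rich proteoglycans Omd (1.53 ± 0.18, adjusted p = 0.018) and Bgn (1.18 ± 0.16, adjusted p = 0.0292), and 0 lower, with a median of -0.02, that of all genes. Of 16 tested relatives of the 10 genes, which share a family or a pathway with them, 0 were called and the median was 0.01. Among these, Comp, the thrombospondin of cartilage, gave 1.43 ± 0.46 (adjusted p = 0.185), Smpd2, another neutral sphingomyelinase, 0.53 ± 0.19 (adjusted p = 0.215), and Slc8b1, a mitochondrial sodium/calcium exchanger, 0.70 ± 0.20 (adjusted p = 0.153). Without control mouse 1 the medians were 0.53 for cartilage genes, 0.13 for tendon and fibrous matrix genes and 0.12 for the relatives.

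The other lists gave the remaining tissue background. Hair cell genes were below 0 in 12 of 12 tested, 2 of them called lower in the base, the stereocilia protein gene Strc (-2.96 ± 0.37, adjusted p = 0.0231, limma) and the transcription factor Gfi1 (-2.01 ± 0.22, adjusted p = 0.017). Supporting cell genes had 2 of 6 called lower, Sox2 (-1.37 ± 0.16, adjusted p = 0.0197) and the Notch ligand Jag1 (-1.19 ± 0.13, adjusted p = 0.0173). No gene was called in the lists for spiral ligament fibrocytes (8 tested, median 0.20), neurons (7, median -0.34), skeletal muscle (2, median 0.01), smooth muscle and pericytes (4, median 0.80) or bone marrow (10, median 0.33). Without control mouse 1 the medians were -1.06 for hair cell genes (-0.99 with it) and -0.96 for supporting cell genes (-0.925 with it). They were -0.69 for neurons, 0.29 for spiral ligament fibrocytes, 0.003 for skeletal muscle, 1.01 for smooth muscle and pericytes and 0.30 for bone marrow. The largest summed skeletal muscle signal was 490.6, on cKO base replicate 1. The 10 basal genes thus stood higher in the region where hair cell genes had a median difference of -0.99, beside -0.02 over all tested genes. For 4 of the 12 hair cell genes all 4 basal arrays lay below all 4 apical ones. The part of tissue makeup was not tested.

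The genes whose pattern was most like the mean of the 10, by Pearson's r over the 8 arrays, were Slco1a4, a transporter of organic anions (r = 0.990), Phex (0.985), the receptor kinase Grk5 (0.984), the vesicle coat gene Sec31a (0.984), the immune GTPase Gimap4 (0.983), the transcription factor Stat5b (0.982), Ank, which exports pyrophosphate (0.981), the nucleotidase Nt5c2 (0.977), Rasl12 (0.977) and Srpx2 (0.976). All points share the split into 4 basal and 4 apical arrays, which any basal gene would follow. Slco1a4 had gradients of 1.45 and 1.22 in cKO mice 1 and 2 and of 0.82 and 1.63 in control mice 1 and 2. Srpx2, an extracellular matrix protein, had the steepest mean difference of these, 1.67, below the median of 1.88 of the 10 genes.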

How the data were processed

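Expression was measured on 8 Affymetrix arrays, 2 for each region of the organ of Corti in each genotype. The deposited values are MAS5 signals, linear intensities of probe sets; from the values, the authors scaled each array to a trimmed mean of 500 (2% off each end). The submitters' processing notes name MAS5 and affy 1.26 without their roles. Detection calls were not used here. Median signals ran from 67.3 to 100.4; the number of arrays limits precision, and 2 samples a group measure only the spread between these mice.

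Of 45101 probe sets (64 controls), 34945 had 1 gene, 932 several and 9160 none listed; 34741 of the first matched RefSeq by Entrez identifier. A gene was read from its probe set of highest mean log2 signal. Genes under the 40th percentile (log2 5.27) were not tested. limma 3.58.1 (R 4.3.3) estimated 1 mean per group with an intensity trend, two-sided, with Benjamini-Hochberg adjustment over 13221 genes and a threshold of 0.05; printed adjusted p-values are rounded. The procedure was tested on simulated data. Base and apex of 1 genotype and number were presumed to be the same mouse; their deviations correlated at 0.07 in cKO and 0.34 in controls, and Xist was high on both arrays numbered 1 in controls.

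Named were the 10 genes, tissue checks, up to 4 genes of smallest p from a list, and the 10 genes most like the mean. The members, the lists (strial melanocyte, strial ion transport, bone, osteoclast, cartilage, tendon and fibrous matrix, spiral ligament fibrocyte, hair cell, supporting cell, neuron, skeletal muscle, smooth muscle and pericyte, bone marrow, relatives of the 10 genes) and the tests were chosen with earlier results of these data known. Alternatives were the filter, a pseudocount of 16, normalization, probe set choice, variance model, mouse as a block, low signals raised to the filter, and leaving out arrays.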

Additional observations from a re-analysis of the deposited data

How the results depend on the processing

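For the 10 genes, base stayed above apex under every alternative run, in both genotypes. When arrays were left out, that direction was fixed by the choice of the genes. Their median differences are given as lowest to highest when 1 array was left out. They were 1.73 to 2.08 over both genotypes, 1.91 to 2.15 in the cKO and 1.64 to 1.99 in controls. Without control mouse 1 the median in controls was 2.14. No genotype or gradient difference of the 10 passed under any alternative. When 1 array was left out, the median genotype difference ran from -0.21 to 0.42 in the base and from -0.09 to 0.00 in the apex (-0.11 with the mean of probe sets), and the median gradient difference from 0.10 to 0.46 (-0.0656 without control mouse 1, where Clca2 gave -0.25, Cytl1 -0.97, Ppp1r1b -0.0625 and Slc8a3 -0.69).

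Single genes changed sign between genotypes as follows: with arrays centred on the 75th percentile Clca2 in the apex (0.0068) and Ptgis in the base (0.0041), and with the mean of probe sets Slc8a3 in the apex (-0.85). When 1 array was left out, apical differences ranged from -0.27 to 0.007 for Chad, -0.48 to 0.41 for Clca2, -0.0045 to 0.48 for Cytl1, -0.41 to 0.24 for Ptgis, -0.0201 to 0.34 for Slc8a3 and -0.19 to 0.20 for Smpd3. Basal ones ranged from -0.0143 to 0.22 for Chad, -0.49 to 1.13 for Cytl1, -0.21 to 0.60 for Nkx6-1, -0.24 to 0.47 for Ppp1r1b, -0.23 to 0.16 for Ptgis, -0.34 to 1.49 for Slc8a3, -0.27 to 0.0178 for Smpd3 and -0.54 to 1.24 for Tnmd. Gradient differences ranged from -0.73 to 0.89 for Cytl1, -0.28 to 0.37 for Ptgis, -0.51 to 1.33 for Slc8a3, -0.32 to 0.0638 for Smpd3, -0.21 to 0.96 for Thbs4 and -0.30 to 1.49 for Tnmd. The smallest adjusted p among these was 0.0633 (limma), for Slc8a3 in the base without control base replicate 2; over the alternatives the adjusted p of the 10 genes in the base ran from 0.0633 to 1.

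Counts over all genes depended on the settings. Base minus apex over both genotypes called 157 genes, 98 with the mean of probe sets, 70 without the intensity trend, 527 with the mouse as a random replicate block, 255 with a fixed replicate block, 1049 without control mouse 1 and 0 to 1518 when 1 array was left out. In the cKO alone it called 11, against 6 with the mean of probe sets, 81 with the random replicate block, 0 with no filter, quantile normalization, centring on the 75th percentile, no trend or the fixed block, and 0 to 316 when 1 array was left out. In controls alone it called 0, against 157 without control mouse 1 and 0 to 551 when 1 array was left out. Between genotypes, 1 gene was called in each region without the trend, and 0 to 37 in the base when 1 array was left out. The cause was not tested. The random block changed no genotype or gradient call of the 10 genes and the fixed block, run for the gradient difference only among these, changed none.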
